A study of Mus musculus with 6 samples.

Results

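The 10 genes described here encode molecules by which stromal cells of the bone marrow restrain immune cells: the prostaglandin E2 genes Ptgs2, Ptges and Ptger4, the tryptophan-degrading enzyme gene Ido1, the secreted factor genes Hgf, Lif and Tnfaip6, the galectin gene Lgals9, and the genes of the PD-1 ligands, Cd274 and Pdcd1lg2. They were taken by name, 10 of the 25722 genes listed, and all 10 were found in every table. RNA had been sequenced from adherent cells of C57BL/6 mouse bone marrow, which the labels call BM-MSCs from wild-type animals and the study calls BMSCs. One group of 3 libraries received the solvent DMSO and the other 3 received all-trans retinoic acid (RA) at 1 µM, both for 48 h and both without interleukin-17 or interferon-γ. All cultures shared low-glucose medium with 20% fetal bovine serum and 10 µM ROCK inhibitor at 5% oxygen and 5% CO2. No transgene or deletion was carried, and nothing in the labels says that the 3 cultures of a group came from separate animals, so p-values measure the spread between these samples, which may be technical. The study asked whether RA blocks the change of such cells into tumor-associated stromal cells that interleukin-17 and interferon-γ bring about together. The comparison here is RA against DMSO at rest.

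Mesenchymal stem or stromal cells are known to dampen T cells, macrophages and dendritic cells, largely through soluble products and surface ligands that inflammatory cytokines such as interferon-γ, tumor necrosis factor and interleukin-17 induce. Cyclooxygenase 2 and the microsomal prostaglandin E synthase make prostaglandin E2 in sequence, and the EP4 receptor is one of its receptors. Mouse stromal cells are known to rely on the inducible nitric oxide synthase, where human ones use indoleamine 2,3-dioxygenase. RA acts through nuclear receptors that bind DNA and induce, among others, the enzymes that break RA down.

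None of the effector genes passed the test. Of the 10, 7 held enough counts to be tested, and edgeR's quasi-likelihood test called 0 of them (a call needs an adjusted p below 0.05 and a change of 1.5-fold or more), where it called 6 of 13842 genes, or 0.0433%. At an unadjusted p under 0.05 the members' count was also 0, against 5.25% of tested genes, and DESeq2 called 0 members with a smallest adjusted p of 0.911. The smallest edgeR adjusted p of a member was 0.799, for Lgals9. The median log2 fold change of the 7 was -0.32, beside -0.018 over all tested genes, with 5 estimates below 0 and 2 above it. In no tested member did the RA libraries all lie above the DMSO libraries, as in 5.71% of tested genes, or all below them, as in 6.87%. The intervals of the fold changes were wide for Ptgs2 and Lif and narrow for Ptger4, so the data limit a change of Ptger4 much more closely than one of Ptgs2.

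The libraries held 14737636 to 18511905 counts, so that 3 counts stood for 0.162 to 0.204 CPM (counts relative to a common depth) before the TMM scaling used for all other CPM values. Treatment did not set how the libraries grouped. When the 1000 genes of highest variance were reduced to principal components, the first one carried 57.2% of the variance and put DMSO 2, RA 1 and RA 2 on one side (library set 1) and DMSO 1, DMSO 3 and RA 3 on the other (library set 2). Neither the labels nor the study names a batch, the sets were drawn from the expression values themselves, and what parts them was not tested. Each member is therefore also given within the sets, although set 1 has 1 DMSO library and set 2 has 1 RA library. Some fits below hold the set as a covariate, and such a fit called 213 of 13842 tested genes, against 6 without it. As the covariate came from the same expression values, p-values of these fits can be too small. Calls in them are descriptive and give no independent support. As to the labelled cell type, 11 of 12 stromal markers were tested. The summed level of the list was 2350 to 4497 CPM in DMSO and 1742 to 3518 CPM in RA libraries, with 1 gene of the list, Thy1, between 0 and 0.49 CPM. All 14 macrophage markers were tested, and their sum was 20733 to 23007 CPM in DMSO and 20367 to 21651 CPM in RA libraries. The macrophage marker sum thus exceeded the stromal one in every library. Such sums depend on the genes listed, are not corrected for length and do not measure the share of a cell type. Markers of other cell types were low, with summed levels of 6.65 to 16.9 CPM for endothelium, 2.00 to 4.06 CPM for dendritic cells, 3.03 to 4.25 CPM for neutrophils, at most 2.31 CPM for red cells and at most 0.127 CPM for lymphoid cells. In such mixed bulk RNA, fewer cells of a type and less RNA per cell cannot be told apart, and which cells carried a member's reads was not tested.

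**Figure D1:**
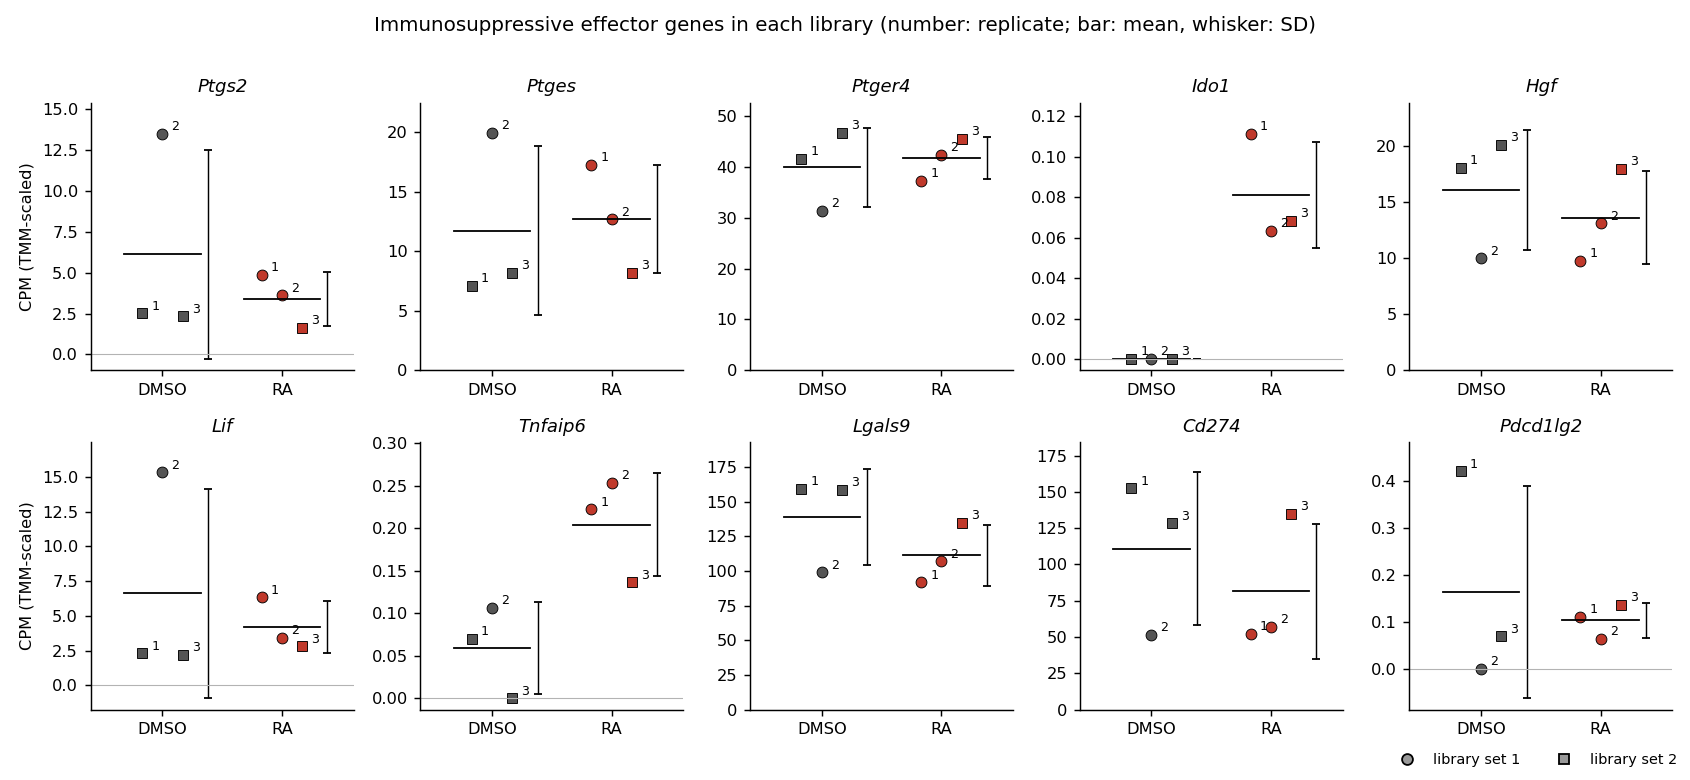
Level of the 10 effector genes in each library in TMM-scaled CPM (vertical axis, a separate linear scale for each gene), by group; grey is DMSO and red is RA, circles are library set 1 and squares library set 2, the bar is the mean and the whisker the SD of 3 libraries. DMSO 2 stands highest for Ptgs2, Ptges and Lif, the squares stand highest for Hgf, Lgals9 and Cd274, and Ido1, Tnfaip6 and Pdcd1lg2 stay under 0.5 CPM.

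The members covered a wide range of levels. Compared per kb of exon, mean levels over the 6 libraries ran from 58.5 CPM per kb for Lgals9 (94.5 percentile of tested genes) and 26.5 for Cd274 (86.5 percentile) through 6.14 for Ptger4, 3.11 for Ptges and 2.07 for Hgf to 1.24 for Lif and 1.04 for Ptgs2 (21.1 percentile). Over the libraries, the level per kb ranged from 43.0 to 74.6 for Lgals9 and from 14.2 to 42.1 for Cd274, so these neighbours did not overlap. Ptger4, at 4.72 to 7.02, lay below both and overlapped Ptges at its lower end. Ptgs2, at 0.358 to 2.95 CPM per kb, and Lif, at 0.506 to 3.52, overlapped nearly throughout. Hgf, at 1.36 to 2.80, and Ptges, at 1.80 to 5.07, overlapped as well. The surface or secreted lectin and the PD-1 ligand were thus the abundant members, and the enzyme and cytokine genes were low.

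**Figure D2:**
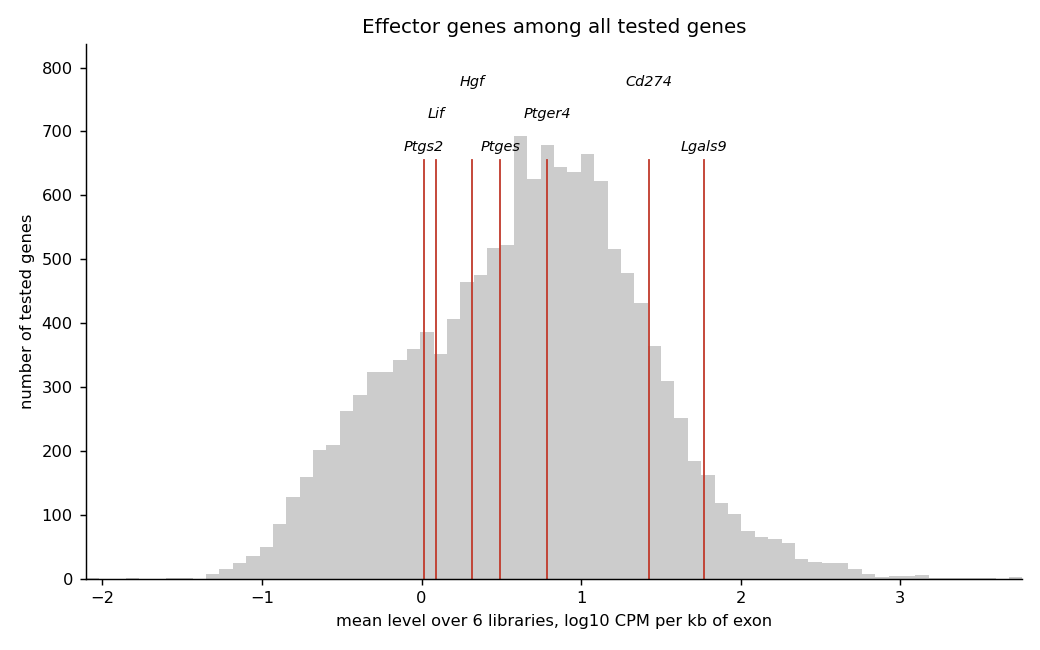
Distribution of the mean level per exon length over the 6 libraries for the 13842 tested genes (horizontal axis, log10 CPM per kb; vertical axis, number of genes), with red lines at the 7 tested effector genes. Lgals9 and Cd274 lie on the right of the distribution at 58.5 and 26.5 CPM per kb, and Ptgs2 and Lif on the left at 1.04 and 1.24.

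The promoters of 4 members are printed because they stand for the patterns met below: Ptgs2 and Lif varied most and were highest in library set 1, and Lgals9 and Cd274 were the most abundant and highest in library set 2. The windows run from 250 bases before to 50 after the RefSeq start (GRCm38.p6) and are written 5′ to 3′ on the gene's strand. They are chr1:150099781-150100080 (plus strand) for Ptgs2, chr11:4257318-4257617 (plus strand) for Lif, chr11:78984875-78985174 (minus strand) for Lgals9 and chr19:29367188-29367487 (plus strand) for Cd274. Capitals mark matches to the motifs searched.
Ptgs2: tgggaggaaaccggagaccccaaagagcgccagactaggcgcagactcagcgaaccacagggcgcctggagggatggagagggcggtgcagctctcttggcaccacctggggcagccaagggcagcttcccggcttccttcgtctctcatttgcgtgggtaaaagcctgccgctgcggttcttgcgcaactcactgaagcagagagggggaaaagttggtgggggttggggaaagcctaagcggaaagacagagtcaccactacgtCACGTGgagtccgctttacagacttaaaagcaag
Lif: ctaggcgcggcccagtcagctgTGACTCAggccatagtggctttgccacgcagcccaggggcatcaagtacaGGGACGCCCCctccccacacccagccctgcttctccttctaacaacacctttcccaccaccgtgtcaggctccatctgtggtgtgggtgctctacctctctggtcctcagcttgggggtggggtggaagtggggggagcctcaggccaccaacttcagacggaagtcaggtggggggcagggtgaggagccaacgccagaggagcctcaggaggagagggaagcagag
Lgals9: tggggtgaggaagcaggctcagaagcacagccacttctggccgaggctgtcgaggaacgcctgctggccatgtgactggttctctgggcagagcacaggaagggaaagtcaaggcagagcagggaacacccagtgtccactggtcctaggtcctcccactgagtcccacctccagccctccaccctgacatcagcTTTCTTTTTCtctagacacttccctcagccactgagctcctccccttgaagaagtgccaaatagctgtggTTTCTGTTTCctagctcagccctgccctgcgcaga
Cd274: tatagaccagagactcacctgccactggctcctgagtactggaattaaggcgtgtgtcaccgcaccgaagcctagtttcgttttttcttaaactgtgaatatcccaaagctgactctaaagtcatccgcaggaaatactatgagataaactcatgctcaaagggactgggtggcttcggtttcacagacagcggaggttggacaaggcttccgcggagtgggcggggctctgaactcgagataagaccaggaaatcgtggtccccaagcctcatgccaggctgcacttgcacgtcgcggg
Searched on both strands were the NF-kB motif, the retinoic acid response element of direct repeats spaced by 5 bases (both by name), the interferon motifs GAS (TTCNNNGAA) and ISRE (GAAA, any 2 bases, GAAA), the AP-1 motif TGANTCA and the E-box CACGTG. The Ptgs2 window held an E-box at position 17, counted from 1 at the start, as did 7.15% of the 32851 promoter windows of the table. The Lif window held an NF-kB match at position -178 (8.46% of all windows) and an AP-1 match at -228 (7.81%). Lgals9 held the ISRE at -55 and again at 16, a motif found in 3.44% of windows. Cd274 held none of the 6, and neither did Ptges, Ptger4 or Hgf. Of the members with few counts, Tnfaip6 had GAS at -209 (8.3% of windows) and AP-1 at -142, and Pdcd1lg2 had NF-kB at -244. The response element for RA was in 0.0974% of windows and in none of the 9 members with a window. These matches describe letters in short windows and say nothing of binding.

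Ptgs2 (ENSMUSG00000032487, chr1:150100031-150108227, GRCm38 plus strand), the gene of the inducible cyclooxygenase 2, stood at 2.52, 13.5 and 2.34 CPM in DMSO libraries 1 to 3 and at 4.89, 3.61 and 1.64 CPM in RA libraries 1 to 3. DMSO 2 was far above the other 5 libraries, and the groups overlapped. The means were 6.12 ± 6.40 CPM (SD, n = 3) with DMSO and 3.38 ± 1.64 CPM (SD, n = 3) with RA, a log2 fold change of -0.86 (SE 0.77, 95% interval -2.69 to 0.97, edgeR adjusted p = 0.807). Without DMSO 2 the estimate turned to 0.50 (edgeR adjusted p = 0.641). Within library set 1 the log2 difference was -1.65, and within set 2 it was -0.53, so RA libraries were lower in both sets. Fitted with the library set as covariate, Ptgs2 had an estimate of -1.27 (SE 0.27), an unadjusted edgeR p of 0.00191 and an adjusted p of 0.0758, which misses the threshold. The set itself went with a larger difference, since the mean of set 1 was 3.39 times that of set 2.

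Ptges (chr2:30889471-30929863, minus strand) encodes the microsomal prostaglandin E synthase that acts after cyclooxygenase. Its level was 7.07, 19.9 and 8.18 CPM with DMSO and 17.2, 12.7 and 8.19 CPM with RA. The order of libraries at the top, DMSO 2 before RA 1 before RA 2, was that of Ptgs2, and the remaining 3 libraries were near each other. Means of 11.7 ± 7.13 and 12.7 ± 4.52 CPM (SD, n = 3) gave a log2 fold change of 0.11 (SE 0.46, 95% interval -0.99 to 1.21, edgeR adjusted p = 0.957). The direction rested on single libraries: it was -0.43 within set 1, 0.10 within set 2 and 0.75 without DMSO 2 (edgeR adjusted p = 0.526).

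Ptger4 (chr15:5206661-5244187, minus strand), the gene of the prostaglandin receptor EP4, was the steadiest member, at 41.6, 31.4 and 46.7 CPM with DMSO and 37.3, 42.4 and 45.6 CPM with RA. The means of 39.9 ± 7.80 and 41.7 ± 4.17 CPM (SD, n = 3) differed by 0.066 on the log2 scale (SE 0.18, 95% interval -0.35 to 0.49, edgeR adjusted p = 0.930). It was the only tested member higher after RA within both sets, by 0.34 in set 1 and by 0.05 in set 2, while without DMSO 2 the estimate was -0.066. On the opposite strand, exons of Ttc33 overlap it by 82 bases and the pseudogene Gm15937, with at most 2 counts in a library, by 872 bases. The library kit is not stated to keep strand, so reads there cannot be told apart.

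Among 12 tested genes of 14 in the surrounding prostaglandin list, edgeR called 0, with 8 estimates higher and 4 lower and a median log2 fold change of 0.17. Ptgs1, the gene of the constitutive cyclooxygenase 1, was the one whose groups did not overlap. It stood at 40.6, 17.1 and 44.1 CPM with DMSO and 80.8, 64.7 and 113 CPM with RA, a log2 fold change of 1.35 (SE 0.38, unadjusted p = 0.0105, edgeR adjusted p = 0.660). Within the sets it was higher after RA by 2.08 and 1.42, and with the set as covariate the estimate of 1.74 was called (edgeR adjusted p = 0.00524). Per kb, Ptgs1 had a mean of 15.5 CPM over the 6 libraries and Ptgs2 one of 1.04. The gap was narrowest in DMSO 2, at 4.40 CPM per kb for Ptgs1 and 2.95 for Ptgs2. The largest fall in the list was the -0.42 of Ptges2, a second prostaglandin E synthase (edgeR adjusted p = 0.795), and Ptges3, the cytosolic one, had the highest level per length at 52.3 CPM per kb and 0.11 as its log2 fold change. Hpgd, whose product inactivates prostaglandin E2, ranged from 2.29 to 18.8 CPM with DMSO and from 4.39 to 19.4 CPM with RA (log2 fold change -0.15, edgeR adjusted p = 0.968).

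Ido1 (chr8:24584136-24597009, minus strand), which encodes indoleamine 2,3-dioxygenase and opens the kynurenine pathway, was barely read: it had 0 counts in each DMSO library and 2, 1 and 1 counts in RA libraries 1 to 3. Both groups lay at or under the 3 counts per library below which no level is read, so no fold change is given. In the list of 10 tryptophan genes, 6 were tested and 0 called, with 4 estimates higher and 2 lower. Ahr, the receptor that kynurenine activates, was the one tested gene whose groups did not overlap, with 10.6, 9.04 and 13.5 CPM in DMSO and 5.50, 3.74 and 8.26 CPM in RA libraries, all RA libraries below all DMSO libraries (log2 fold change -0.92, SE 0.32, edgeR adjusted p = 0.795). The largest rise was 0.50 for Kyat3, a kynurenine aminotransferase (edgeR adjusted p = 0.803). Wars, the tryptophanyl-tRNA synthetase gene and known to be induced by interferon-γ together with Ido1, had the highest level per length at 23.1 CPM per kb and a log2 fold change of 0.18.

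Hgf (chr5:16553495-16620152, plus strand), hepatocyte growth factor, was read at 18.1, 10.0 and 20.1 CPM with DMSO and at 9.78, 13.1 and 18.0 CPM with RA. The 3 libraries of set 2 were the highest ones irrespective of treatment, with a mean 1.71 times that of set 1. Group means were 16.1 ± 5.36 and 13.6 ± 4.14 CPM (SD, n = 3), a log2 fold change of -0.24 (SE 0.33, 95% interval -1.03 to 0.56, edgeR adjusted p = 0.861). Within the sets the log2 differences had opposite signs, 0.18 in set 1 and -0.083 in set 2. The annotated gene Gm43489 overlaps an exon of Hgf by 484 bases on the same strand and had at most 4 counts in a library. Of the 8 genes around HGF, 5 were tested and 0 called. Met, its receptor, ran from 2.77 to 4.97 CPM with DMSO and from 2.03 to 3.27 CPM with RA (log2 fold change -0.53, edgeR adjusted p = 0.795). The plasminogen activator gene Plat had the largest rise, 0.68 (edgeR adjusted p = 0.795).

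Lif (chr11:4257557-4272514, plus strand), leukemia inhibitory factor, shared the pattern of Ptgs2 over the libraries. It was at 2.31, 15.3 and 2.2 CPM with DMSO and 6.34, 3.42 and 2.80 CPM with RA, so again DMSO 2 stood apart and RA 1 and RA 2 came next. The means of 6.61 ± 7.54 and 4.19 ± 1.89 CPM (SD, n = 3) gave a log2 fold change of -0.67 (SE 0.81, 95% interval -2.59 to 1.26, edgeR adjusted p = 0.844). Without DMSO 2 it was 0.91 (edgeR adjusted p = 0.526). The sets went opposite ways, with -1.69 in set 1 and 0.30 in set 2, and with the set as covariate the estimate was -0.89 (SE 0.42, edgeR adjusted p = 0.368).

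The list around LIF holds 10 genes for receptors, ligands of the same family and signaling proteins under them. Of these 8 were tested and edgeR called 0, with 3 estimates higher and 5 lower. Lifr, the LIF receptor, was at 67.1, 51.7 and 78.0 CPM with DMSO and 121, 125 and 103 CPM with RA. Every RA library lay above every DMSO library, at a log2 fold change of 0.83 (SE 0.18, unadjusted p = 0.00242, edgeR adjusted p = 0.353). DESeq2 called Lifr at an adjusted p of 0.00995, and with the library set as covariate the edgeR adjusted p was 0.0562. Within the sets the difference was 1.25 and 0.51. The kinase gene Jak1, which acts under the shared receptor chain and was the most abundant of the list at 40.0 CPM per kb, was also separated upward, by 0.19 on the log2 scale (edgeR adjusted p = 0.795). That shared chain, Il6st, was at 61.8 to 116 CPM with DMSO and 71.4 to 118 CPM with RA. Il6 had the lowest estimate, -1.31, and stood at 0.70, 11.6 and 0.62 CPM with DMSO against 2.39, 2.73 and 0.14 CPM with RA (edgeR adjusted p = 0.819). With the set as covariate its estimate of -2.19 was called (edgeR adjusted p = 0.00636). Il6 was lower after RA within both sets, with log2 differences of -2.14 and -1.58, while without DMSO 2, the only DMSO library of set 1, the pooled estimate was 1.43 (edgeR adjusted p = 0.560).

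Tnfaip6 (chr2:52038009-52056686, plus strand) encodes TSG-6, a secreted protein that binds hyaluronan and transfers heavy chains of inter-α-inhibitor onto it. It had 1, 2 and 0 counts in DMSO and 4, 4 and 2 counts in RA libraries, too few to be tested. Summed over a group, the 10 counts with RA against 3 with DMSO gave a ratio per total count of 3.37, with a 95% exact counting interval of 0.869 to 19.1 that includes 1 and covers counting error only.

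More counts fell on the genes of the hyaluronan matrix in which TSG-6 acts. Of 13 in the list 9 were tested and edgeR called 0, with 3 estimates higher and 6 lower. At an unadjusted edgeR p under 0.05 there were 4, against 5.25% of all tested genes, in a list chosen with earlier results known. Ptx3, the long pentraxin that works with TSG-6 in hyaluronan matrices, was at 20.4, 101 and 30.0 CPM with DMSO and 18.0, 11.4 and 3.27 CPM with RA, every RA library below every DMSO library. Its log2 fold change of -2.21 (SE 0.79) had an edgeR adjusted p of 0.795, and with the set as covariate the estimate of -2.84 was called (edgeR adjusted p = 0.00227). Vcan, the hyaluronan-binding proteoglycan versican, was separated in the same direction, at 62.1, 158 and 83.1 CPM with DMSO and 57.7, 56.4 and 33.2 CPM with RA (log2 fold change -1.04, edgeR adjusted p = 0.795), and its covariate estimate of -1.31 was called (edgeR adjusted p = 0.00621). DMSO 2 was the highest library for both, and without it the pooled estimates were -1.19 for Ptx3 and -0.55 for Vcan, each with an edgeR adjusted p of 0.526. Cd44, the hyaluronan receptor and the most abundant of them at 40.7 CPM per kb, and Hyal2, a hyaluronidase, also had all RA libraries below all DMSO libraries, by -0.12 and -0.46 (edgeR adjusted p = 0.809 and 0.795). Itih2, one of the heavy chains that TSG-6 transfers, went the other way, from 0.56, 0.69 and 0.69 CPM with DMSO to 3.28, 2.09 and 1.71 CPM with RA. That log2 fold change of 1.86 (SE 0.35) had an edgeR adjusted p of 0.294 and a DESeq2 adjusted p of 0.0224.

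**Figure D3:**
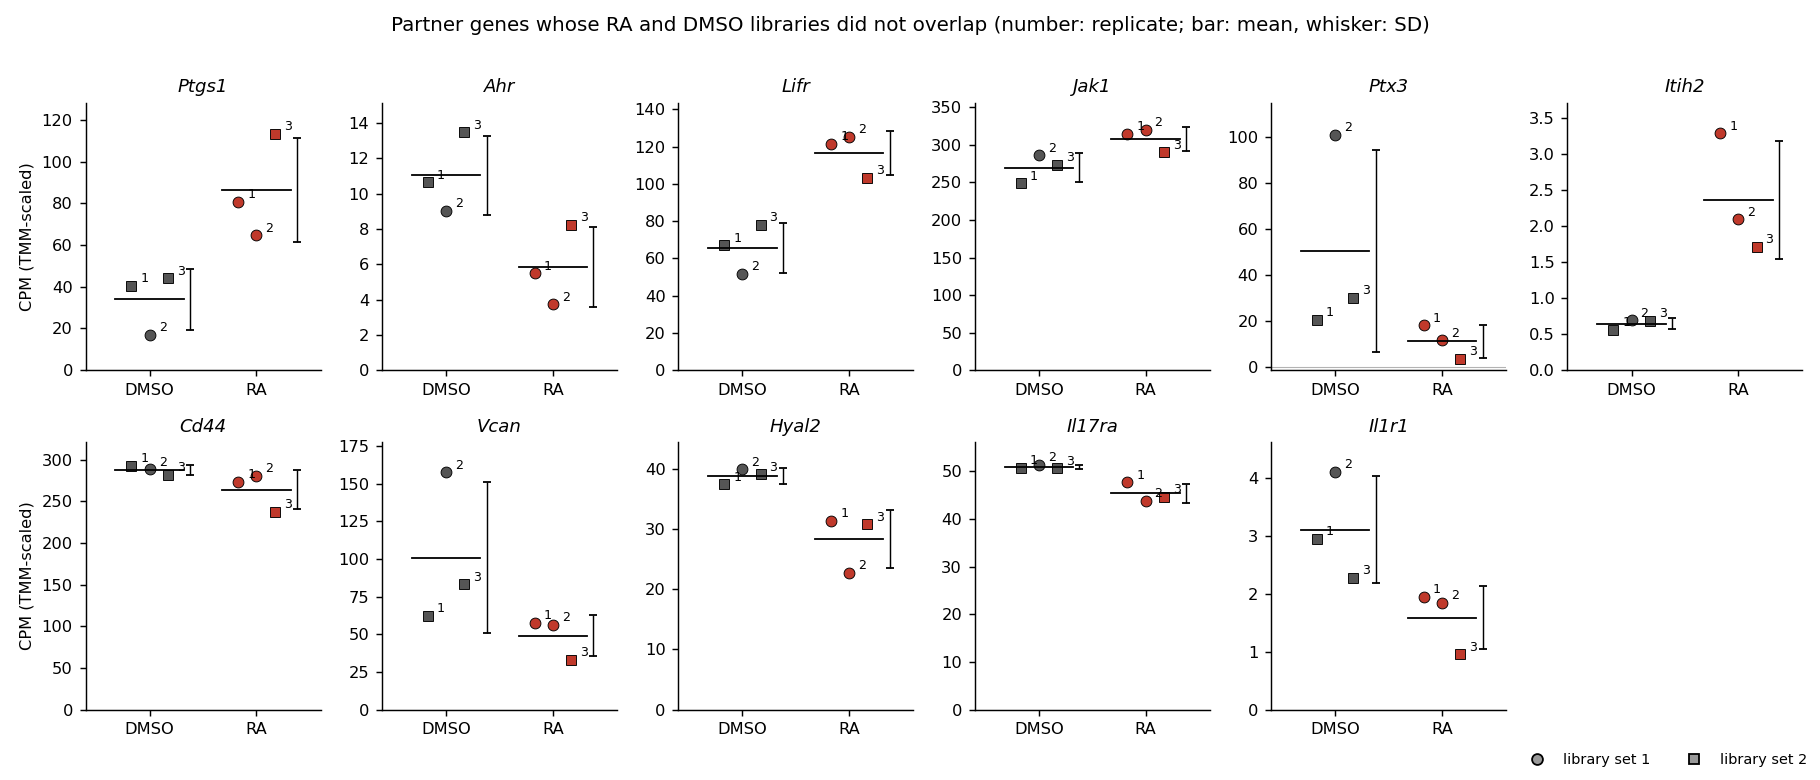
TMM-scaled CPM in each library (vertical axis, a separate linear scale for each gene) for 11 tested partner and inducer genes in which RA and DMSO libraries did not overlap; symbols, bars and whiskers are as in the plot of the effector genes. Ptgs1 stands at 64.7 to 113 CPM with RA against 17.1 to 44.1 with DMSO, Lifr at 103 to 125 against 51.7 to 78.0, and Ptx3 at 3.27 to 18.0 against 20.4 to 101, while edgeR adjusted p-values over all genes stayed above the threshold for each of the 11. Of all tested genes, 5.71% had every RA library above every DMSO library and 6.87% had every one below.

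Lgals9 (chr11:78962974-78984946, minus strand), whose product galectin-9 binds the T cell receptor TIM-3, was the most abundant member, with 1653 to 2306 counts a library. It was read at 159, 99.1 and 159 CPM with DMSO and 91.9, 107 and 135 CPM with RA. The libraries of set 2 were again the highest, at 1.52 times the mean of set 1. Group means were 139 ± 34.6 and 111 ± 21.8 CPM (SD, n = 3), a log2 fold change of -0.32 (SE 0.23, 95% interval -0.88 to 0.23, edgeR adjusted p = 0.799). Within set 1 the difference was -0.0004 and within set 2 it was -0.24, and it was -0.50 without DMSO 2. The 6 genes around it were all tested, 0 were called, and 3 estimates lay on either side of 0. Havcr2, the gene of TIM-3, had the largest fall, -0.66, at 1.81 to 5.60 CPM with DMSO and 1.72 to 3.96 CPM with RA (edgeR adjusted p = 0.803), and Lgals8 the largest rise, 0.083. Lgals1, galectin-1, had the highest level per length of the list at 618 CPM per kb, above the 58.5 of Lgals9, and a log2 fold change of 0.03 (edgeR adjusted p = 0.987).

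Cd274 (chr19:29367455-29388095, plus strand) encodes PD-L1, the ligand that restrains T cells through PD-1. Its levels were 152, 51.5 and 128 CPM with DMSO and 52.0, 57.2 and 135 CPM with RA. The libraries of set 1 lay at 51.5 to 57.2 CPM and those of set 2 at 128 to 152 CPM, a 2.59-fold difference of the set means with no overlap. The treatment means of 111 ± 52.7 and 81.3 ± 46.4 CPM (SD, n = 3) gave a log2 fold change of -0.45 (SE 0.51, 95% interval -1.65 to 0.76, edgeR adjusted p = 0.837). Without RA 3 the estimate was -1.02, and within the sets it was 0.083 and -0.053. With the set as covariate it was 0.011 (SE 0.10, edgeR adjusted p = 0.965). An antisense gene, AC119228.1, overlaps an exon of Cd274 by 285 bases. It had 212, 76 and 175 counts in DMSO and 71, 89 and 225 counts in RA libraries, the same split by set, and without strand its reads and those of Cd274 cannot be told apart there.

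Pdcd1lg2 (chr19:29410919-29471161, plus strand), the gene of PD-L2, lies next to Cd274 but was hardly read, with 6, 0 and 1 counts in DMSO and 2, 1 and 2 counts in RA libraries. The sums of 5 counts with RA and 7 with DMSO gave a ratio per total count of 0.723 (95% exact counting interval 0.181 to 2.65). In the checkpoint list 9 of 12 genes were tested and 0 called, with a median log2 fold change of 0.00085 and estimates between -0.36 and 0.16. Vsir, the gene of the checkpoint protein VISTA, had both the lowest estimate and the highest level per length (89.3 CPM per kb), at 613, 280 and 615 CPM with DMSO and 271, 283 and 624 CPM with RA (edgeR adjusted p = 0.844), a split by library set like that of Cd274. The largest rise was that of the costimulatory ligand gene Cd86, 0.16 (edgeR adjusted p = 0.911). Pdcd1, the PD-1 gene itself, had at most 0.0532 CPM in a library.

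**Figure D4:**
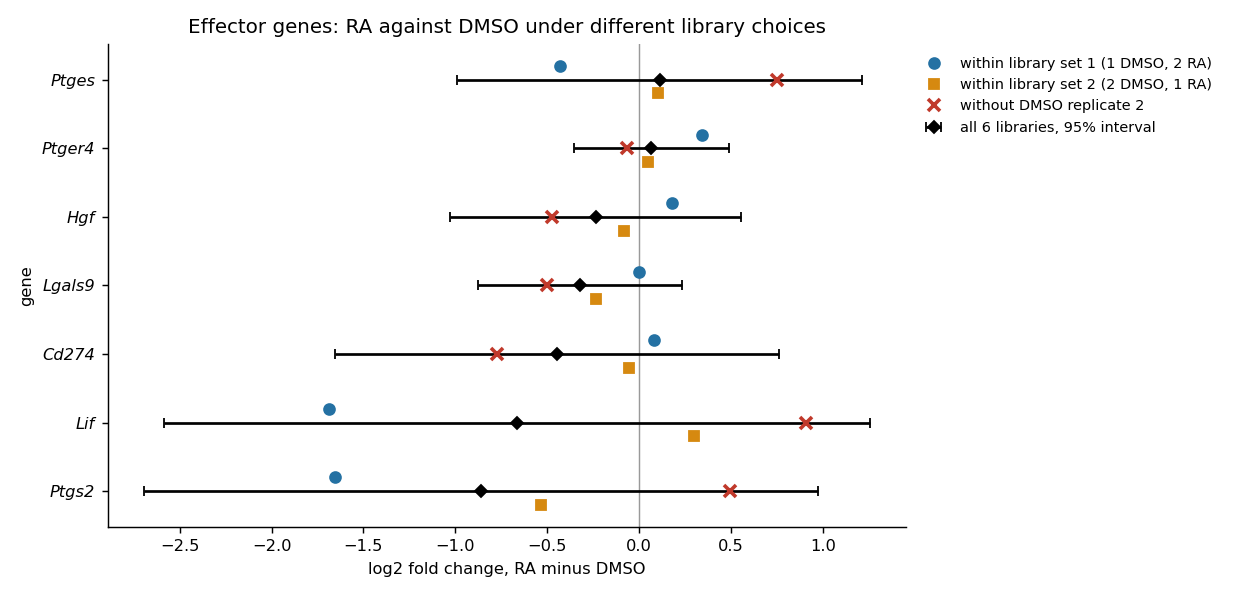
Log2 fold change, RA minus DMSO (horizontal axis), of the 7 tested effector genes (vertical axis): black diamonds are the edgeR estimates over all 6 libraries with 95% intervals, circles and squares are the differences within library sets 1 and 2, and crosses are the estimates without DMSO replicate 2. Every interval covers 0, and the crosses lie on the other side of 0 from the diamonds for Ptgs2, Lif and Ptger4.

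In 6 of the 7 tested members the sets did not overlap, as in 47.7% of all tested genes, with set 1 above for Ptgs2, Ptges and Lif and set 2 above for Hgf, Lgals9 and Cd274. Only Ptgs2 and Lgals9 were lower after RA in both sets, that is 2 of 7, beside 35% of tested genes. Fitted with the set as covariate, edgeR called 0 of the 7, against 1.54% of tested genes. The summed level of the stromal markers was highest in DMSO 2 (4497 CPM) and RA 1 (3518 CPM), the libraries at the top for Ptgs2, Ptges and Lif, and lay between 1742 and 2601 CPM in the other 4. Of the 14 macrophage markers 10 were higher in every library of set 2 than in every library of set 1, as Hgf, Lgals9 and Cd274 were. Another 2 of the 14 were higher in every library of set 1. The sum of the 14, 20733 to 23007 CPM in set 2 and 20367 to 21562 CPM in set 1, overlapped between the sets. What part these cell markers have in the members' levels was not tested.

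Other products by which stromal cells act on immune cells were tested in 13 of 14 cases. EdgeR called 0 of them, with 3 estimates higher and 10 lower and a median of -0.21. Entpd1, the ectonucleotidase CD39, had the largest fall, -0.90, and ran from 8.08 to 49.9 CPM with DMSO and from 7.62 to 36.8 CPM with RA (edgeR adjusted p = 0.809). That value moved between -2.06 and -0.45 with 1 library left out, and within the sets it was -0.056 and -0.27, and the mean of set 2 was 5.35 times that of set 1. Hmox1, heme oxygenase 1, was the most abundant per length at 547 CPM per kb, with a log2 fold change of 0.28. Il1rn, the interleukin-1 receptor antagonist, was called downward with the covariate (-0.92, edgeR adjusted p = 0.0146), at 30.5, 54.8 and 32.1 CPM with DMSO and 30.8, 34.0 and 14.5 CPM with RA. Its pooled estimate was -0.57, and -0.23 without DMSO 2 (edgeR adjusted p = 0.776). Nos2, the inducible nitric oxide synthase, was at 2.38, 23.9 and 1.99 CPM with DMSO and 13.4, 10.3 and 1.84 CPM with RA, high in the 3 libraries of set 1 whatever the treatment (log2 fold change -0.15, edgeR adjusted p = 0.977). Without DMSO 2 the Nos2 estimate turned to 1.98 (edgeR adjusted p = 0.526), whereas within the sets it was -1.02 and -0.23 and with the set as covariate -0.77 (edgeR adjusted p = 0.166).

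The cytokines that induce the effector genes were little expressed in part, since Ifng had at most 0.0556 CPM in a library. Of the 15 genes for inducing cytokines, their receptors and their response, 12 were tested and 0 called, with 10 estimates lower and 2 higher (median -0.23). Tnf was read at 98.1, 195 and 92.2 CPM with DMSO and 118, 120 and 81.7 CPM with RA (log2 fold change -0.27, edgeR adjusted p = 0.842). Without DMSO 2 the Tnf estimate was 0.18, whereas within the sets it was -0.71 and -0.22 and with the set as covariate -0.47 (edgeR adjusted p = 0.114). The receptor genes Il17ra and Il1r1 had every RA library below every DMSO library, Il17ra at 50.7, 51.4 and 50.7 against 47.7, 43.8 and 44.6 CPM (log2 fold change -0.17) and Il1r1, the largest fall of the list, at 2.94, 4.10 and 2.27 against 1.95, 1.84 and 0.955 CPM (log2 fold change -0.97), both at an edgeR adjusted p of 0.795. The chemokine gene Cxcl10 had the largest rise, 0.42 (edgeR adjusted p = 0.883), and Tnfrsf1a, a receptor for tumor necrosis factor, the highest level per length, 81.6 CPM per kb.

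Genes known to answer RA were read in the same libraries. Of 8 retinoid response genes 7 were tested, all had estimates above 0 (median 2.97), and edgeR called Cyp26b1, which breaks RA down, at a log2 fold change of 4.35 (SE 0.19, edgeR adjusted p = 0.00207). It rose from 4.97, 5.96 and 4.68 CPM with DMSO to 124, 110 and 87.1 CPM with RA. In 6 of the 7 every RA library lay above every DMSO library, among them Cyp26a1, Cyp26b1, Rarb, Crabp2 and Tgm2, whose log2 fold changes were 1.64 to 4.35. Dhrs3, which reduces retinal, was the exception, at 103 to 160 CPM with DMSO and 136 to 217 CPM with RA, and had the highest level per length at 52.6 CPM per kb. Over the 10 lists together 1 of 87 tested genes was called, and without the retinoid list 0 of 80. Of those 80, 9 had an unadjusted edgeR p under 0.05, against 5.25% of all tested genes. DESeq2 called Lifr and Itih2 among the 80, and 136 of all 13842 tested genes. Every RA library lay above every DMSO library in 5 of the 80 and below in 7, beside 5.71% and 6.87% of all tested genes.

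**Figure D5:**
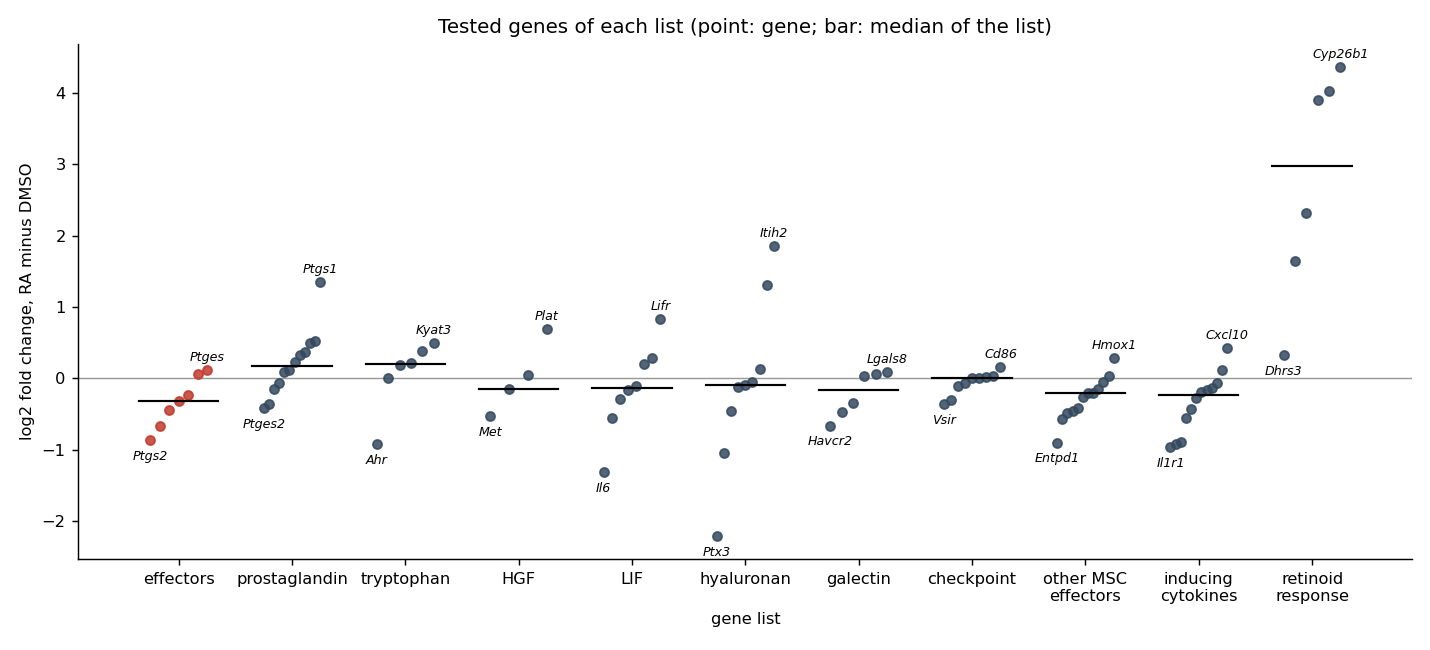
Log2 fold change, RA minus DMSO (vertical axis), of the tested effector genes (red) and of tested genes of the 10 surrounding lists (dark blue), with a bar at the median of all tested genes of the list and the highest and lowest gene drawn named. The retinoid list has a median of 2.97, the effector genes have one of -0.32, and the medians of the other 9 lists lie between -0.23 and 0.20.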

How the data were processed

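RNA sequencing of 6 cultures, 3 with DMSO and 3 with RA, was analysed from the tables the authors deposited: 1 for each library, with whole-number counts for each gene and no normalization. The submitters' processing notes list Bowtie2 2.2.3 and mm10, and the counting program and annotation are not given in the sources used here. Groups and replicate numbers 1 to 3 came from the labels. The labels mention 2 biological replicates, yet each group has 3 libraries, and the study's methods give a lower RA dose and a shorter time than the labels, which are followed here.

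All 25722 identifiers were found in GENCODE M21 (GRCm38), which gave coordinates and exon lengths. In R 4.3.3, edgeR 4.0.16 was used with TMM scaling and filterByExpr, which kept 13842 genes. The quasi-likelihood F test compared RA with DMSO over all 6 libraries and had no covariate. P-values were adjusted by Benjamini-Hochberg over all tested genes, and a call needed an adjusted p below 0.05 and a change of 1.5-fold or more. CPM values are TMM-scaled, and within-set differences are of mean log2 CPM with a prior count of 2. Intervals of ratios are exact and cover counting error only, as PCR copies are not separate molecules.

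All members are named. From each of the 10 surrounding lists the text names called genes, those with separate groups, the largest rise and fall, the highest level per length, and direct partners of a member, apart from some genes that are not reported here or drawn. Nos2, Il1rn, Tnf and genes called under an alternative were named after their values were seen. The members, lists and rule were chosen with earlier results of these data known, so no list gives independent support. The alternatives were DESeq2 1.42.0, 2 other scalings, 2 other filters, 2 other thresholds, the replicate block, the library set as covariate and leaving out each library. The test was also tried on simulated data. Promoter windows came from RefSeq (GRCm38.p6), with 9 of the 10 members matched. Experiments with cytokines were not analysed here.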

Additional observations from a re-analysis of the deposited data

How the results depend on the processing

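The count of effector genes called stayed at 0 under every alternative run. Of all tested genes edgeR called 6 (5 higher, 1 lower), against 136 (98 and 38) with DESeq2, 20 (17 and 3) without a filter, 213 (103 and 110) with the library set as covariate, 491 (295 and 196) at an unadjusted p, and 0 to 6 with 1 library left out. In the surrounding lists the count of 1 became 8 with DESeq2, 3 without a filter, 12 with the library set as covariate, 14 at an unadjusted p and 0 to 2 with 1 library left out, the lowest without DMSO replicate 1. With the library set as covariate the log2 fold changes of Ptges, Hgf and Cd274 turned to -0.18, 0.050 and 0.011. Leaving out 1 library at a time moved Ptgs2 between -1.25 and 0.50, Lif between -1.08 and 0.91, Ptges between -0.15 and 0.75, Ptger4 between -0.066 and 0.19, Hgf between -0.49 and -0.021, Lgals9 between -0.50 and -0.18, Cd274 between -1.02 and -0.15, and the members' median between -0.49 and -0.066. The sign turned without DMSO 2 for Ptgs2, Lif and Ptger4, without RA 3 for Ptger4 (-0.0027), and without DMSO 1 (-0.15), DMSO 3 (-0.093) or RA 1 (-0.15) for Ptges. Of the surrounding genes named, the sign also turned in at least 1 such fit for Il6 (-1.82 to 1.43), Nos2 (-0.63 to 1.98), Tnf (-0.46 to 0.18), Hpgd (-0.94 to 0.38), Cxcl10 (-0.056 to 1.01), Cd86 (-0.12 to 0.38), Lgals1 (-0.25 to 0.29), Lgals8 (-0.033 to 0.20) and Ptges3 (-0.026 to 0.30). Why these estimates turned was not tested. Whether a DMSO and an RA culture of the same number form a pair is not stated and could not be decided here. Their deviations correlated at -0.51 for number 1, 0.34 for number 2 and 0.57 for number 3. The libraries numbered 1 lie in different library sets, and those numbered 2, like those numbered 3, share a set. These correlations therefore cannot separate pairing from library set. Of the 6 libraries, 2 were closest to their own number. The fit with the replicate block called 4 genes, all higher, and 0 members. Depth limits Ido1, Tnfaip6 and Pdcd1lg2, which have at most 6 counts in a library.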
